A study of Mus musculus with 72 samples.

Results

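The gene group described here holds 10 genes of the cAMP and CREB circuit: Crem, Creb1, Sik1, Per1, Pde4a, Pde4b, Pde4d, Pde10a, Ppargc1a and Crtc2. They were taken by gene symbol from a table of 50600 genes, and each symbol matched 1 gene. In this circuit, cyclic AMP made by adenylyl cyclases activates protein kinase A, which phosphorylates the transcription factor CREB on promoters that hold a cAMP response element. CRTC coactivators join CREB there once the salt-inducible kinases that hold them in the cytoplasm are switched off. Some of the genes switched on in this way, among them Crem, Sik1 and the type 4 phosphodiesterases, are known to dampen the signal again. In melanocytes the pathway is best known downstream of the melanocortin receptor, where it raises the pigment regulator Mitf.

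RNA-seq was carried out on 72 libraries from 6 mouse melanoma cell lines under 4 treatments, with 3 replicates each, to ask how cells with the gastrin-releasing peptide receptor (GRPR) respond to its ligand GRP and to the GRPR antagonist RC-3095 (RC). Cells were kept for 18 h in 0.5% serum and then exposed for 4 h to 0.1% DMSO (mock), 10 nM GRP, 1 µM RC, or GRP and RC together (GRP+RC). The lines 1057 and 1064, from female mice, express Grpr from its own locus and carry Tyr::NRASQ61K/° with Cdkn2a-/-, and their Cdh1 (E-cadherin) alleles were recombined (Cdh1dF/dF) by Tyr::CreA/°, a Cre driven by the melanocyte tyrosinase promoter. The male line 1181 has Tyr::NRASQ61K/° and Cdkn2a-/- as well, and its label also gives Cdh1dF/dF although no Cre allele is listed (°/°). The female line 1014 is labelled with Tyr::NRASQ61K/° only. Each of these GRPR-negative lines was used in a version transfected with CMV::tGFP (1181-Ctrl, 1014-Ctrl) and a version transfected with CMV::Grpr/tGFP (1181-Grpr, 1014-Grpr), after selection with geneticin. All lines came from melanomas of transgenic C57BL/6J mice, so each value belongs to a cultured line. The native receptor lines have no receptor-free partner, and in the transfected lines Grpr runs from a viral promoter. The study's methods state in general that work on cultured cells rested on biological replicates, but the labels do not say this of the 3 libraries of a group, so p-values measure the spread between these samples, which may in part be technical.

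Libraries held 19512882 to 46862053 counted reads. Grpr lay at 214 to 332 TPM (a depth-scaled transcript abundance per length) in 1057, 539 to 1558 TPM in 1064, 155 to 842 TPM in 1014-Grpr and, apart from 1 library, 12.4 to 123 TPM in 1181-Grpr. Cdh1 was at or below 0.08 TPM in 1057 and 1064, and at 12.1 to 22.3 TPM in 1181-Ctrl. It was low in 1014-Grpr, at 0.52 to 2.49 TPM. Apart from 1 library in each line, it lay at 1.52 to 4.05 TPM in 1014-Ctrl and at 7.84 to 20.5 TPM in 1181-Grpr. All 8 melanocyte markers reached 1 TPM in every line, and the summed markers of fibroblasts and of endothelial cells stayed at or below 14.2 and 4.73 TPM, and that of keratinocytes at or below 7.29 TPM. The summed immune markers ran from 3.01 to 100 TPM and were highest in 1181-Ctrl (median 61.3 TPM). Of the 5, Cd68 reached 1 TPM while Ptprc, Cd3e, Itgam and Csf1r stayed below it in every library, and their part in the results was not tested. Because these are bulk samples, fewer cells of a type and less RNA per cell cannot be told apart. Both of the following libraries went against their labels. The library labelled 1014-Ctrl mock replicate 2 held Grpr at 69.8 TPM, against at most 0.05 TPM in the other 11 libraries of that line. Its Y-linked Ddx3y, Uty, Kdm5d and Eif2s3y stood at 45.3, 11.3, 10.8 and 30.1 TPM, against at most 0.01 TPM in the other 11. The X-inactivation transcript Xist was at 35.1 TPM there, against 118 to 218 TPM. The library labelled 1181-Grpr GRP+RC replicate 2 held Grpr at 0 TPM and Xist at 162 TPM, against 39.7 to 53.9 TPM for Xist in the other 11. Its Y-linked transcripts were at or below 0.01 TPM, against 27.5 to 45.0 TPM for Ddx3y in the other 11. How these libraries came to differ from their labels was not tested. Results that rest on either are given with and without it.

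The members lie apart in the genome: on GRCm38, the build of the files, Creb1 lies on chromosome 1 (64532645-64604548), Sik1 on 17 (31844250-31855804), Per1 on 11 (69095217-69109960), Pde4a on 9 (21165714-21213248) and Pde4b on 4 (102087543-102607259). Pde4d lies on chromosome 13 (108449948-109953461), Pde10a on 17 (8525372-8986648), Ppargc1a on 5 (51454250-51567726) and Crtc2 on 3 (90254163-90264125). Values are sums over the whole gene, so the short repressor forms made from an internal Crem promoter (ICER) and the many phosphodiesterase isoforms were not separated. Of the exon bases of Crem, 8.01% are overlapped by a gene on the other strand, and the strand setting of the counting is not given in the sources used here.

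The RefSeq promoter sequences (GRCm38.p6, the 250 bases before a transcript start) matched 7 members with 14 promoters. They were searched on both strands for the cAMP response element TGACGTCA, for its core TGACG, which every full element also contains, and for the AP-1 site TGACTCA or TGAGTCA. None of the 14 held the full element, which 1.55% of 32851 promoters of the same length hold, and none held the AP-1 letters, which 4.46% hold. The core was found in 5 promoters of 4 members, Per1, Pde4a, Pde4b and Ppargc1a, and in 17.8% of all promoters. These 5 sequences are shown because they are the windows of the members that carry any part of the element, with the core letters of either strand (TGACG or CGTCA) in capitals. Per1, with the core in both of its promoters, is shown from chr11:69098699-69098948 (+ strand, core starting 246 bases before the start) and chr11:69099902-69100151 (+, 132 bases). The other windows are chr9:21183851-21184100 for Pde4a (+, 50 bases), chr4:102421305-102421554 for Pde4b (+, 34 bases) and chr5:51567726-51567975 for Ppargc1a (− strand, 49 bases). A match is a run of letters and not a bound site, and a window without one says nothing about the factor.
Per1 promoter 1: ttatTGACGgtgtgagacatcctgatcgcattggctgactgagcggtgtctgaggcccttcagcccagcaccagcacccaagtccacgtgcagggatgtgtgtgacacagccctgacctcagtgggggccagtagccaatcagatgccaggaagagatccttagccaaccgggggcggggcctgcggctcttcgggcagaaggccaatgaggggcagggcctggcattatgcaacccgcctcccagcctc
Per1 promoter 2: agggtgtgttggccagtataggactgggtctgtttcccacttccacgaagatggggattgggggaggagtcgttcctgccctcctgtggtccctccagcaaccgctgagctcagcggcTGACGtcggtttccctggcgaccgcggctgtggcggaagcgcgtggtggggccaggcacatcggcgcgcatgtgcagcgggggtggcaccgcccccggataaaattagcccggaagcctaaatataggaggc
Pde4a promoter 2 of 3: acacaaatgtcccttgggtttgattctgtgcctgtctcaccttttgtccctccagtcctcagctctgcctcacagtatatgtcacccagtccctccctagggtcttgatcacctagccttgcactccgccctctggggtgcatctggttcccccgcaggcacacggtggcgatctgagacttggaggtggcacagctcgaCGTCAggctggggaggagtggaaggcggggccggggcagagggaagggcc
Pde4b promoter 1 of 4: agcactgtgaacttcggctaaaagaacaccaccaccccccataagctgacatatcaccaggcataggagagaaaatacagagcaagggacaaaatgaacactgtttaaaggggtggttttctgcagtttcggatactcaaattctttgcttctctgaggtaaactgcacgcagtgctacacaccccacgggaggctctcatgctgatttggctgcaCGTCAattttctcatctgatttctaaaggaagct
Ppargc1a promoter: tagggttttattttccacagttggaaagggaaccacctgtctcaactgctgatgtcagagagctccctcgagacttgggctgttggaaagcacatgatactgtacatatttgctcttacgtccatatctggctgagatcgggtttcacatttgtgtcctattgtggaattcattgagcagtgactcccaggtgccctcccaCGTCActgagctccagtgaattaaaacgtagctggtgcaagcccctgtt

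At rest, the members differed widely in abundance, from Crtc2 to the Pde4 genes. Compared per length over the 18 mock libraries, the median level was 53.0 TPM for Crtc2, 23.7 TPM for Per1, 20.8 TPM for Ppargc1a, 19.6 TPM for Creb1, 16.1 TPM for Crem, 7.60 TPM for Pde10a, 6.06 TPM for Sik1, 3.91 TPM for Pde4d, 2.2 TPM for Pde4b and 0.75 TPM for Pde4a. The transcription factor Creb1 and its coactivator Crtc2 varied least between lines, with a ratio of the highest to the lowest line mean of 1.58 and 1.45 on the scale of CPM (depth-scaled counts, here scaled over all 72 libraries).

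Crem, which encodes activators and repressors that bind the same element as CREB, was highest in both lines with native Grpr. Its mean CPM was 119 ± 10.6 in 1057 and 43.0 ± 9.69 in 1064 (SD, n = 3). The ranges of these lines stood apart from each other and from the other 4 lines, whose means lay between 22.6 and 25.6 CPM with overlapping ranges. Per length, 1064 (18.4 to 27.4 TPM) overlapped 1181-Ctrl (13.98 to 20.4 TPM), while 1057 stood apart. Sik1, a kinase that phosphorylates CRTC proteins and keeps them out of the nucleus, was highest in 1181-Ctrl (40.1 ± 2.30 CPM), followed by 1181-Grpr (32.0 ± 5.78 CPM), and lowest in 1064 (4.57 ± 1.12 CPM). In 1014-Ctrl the Sik1 mean of 17.9 CPM rested on the library that went against its label, and without it the mean was 6.47 CPM, next to 6.28 CPM in 1014-Grpr.

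Pde4a was high in 1 line, and Ppargc1a ranged from not detected to over 100 CPM. Pde4a, a cAMP-specific phosphodiesterase, stood at 31.2 ± 4.09 CPM in 1064 and at line means of 0.80 to 2.44 CPM elsewhere, and no 1064 mock library overlapped any other line. The 2.44 CPM was the mean of 1014-Ctrl, which was 3.12 CPM without the library that went against its label. Ppargc1a, the coactivator PGC-1α of mitochondrial genes and in melanocytes a known target of Mitf, averaged 117 ± 48.2 CPM in 1181-Grpr and 77.1 ± 8.82 CPM in 1181-Ctrl, whose ranges overlapped. It averaged 36.4 ± 10.2 CPM in 1014-Grpr and 75.2 CPM in 1014-Ctrl, or 32.9 CPM there without the library that went against its label. It was at 1.64 ± 0.20 CPM in 1057. In 1064 it had 1 read in 1 of 12 libraries and 0 in the others, where a count of 0 allows up to 3 reads, so it was not tested in that line. Pde10a, a phosphodiesterase of both cAMP and cGMP, was highest in 1057 (49.7 ± 0.51 CPM) and lowest in 1181-Ctrl (8.01 ± 3.28 CPM), each apart from its neighbour in the order. Per1, a repressor of the circadian clock, ran from 63.7 ± 12.8 CPM in 1181-Ctrl, apart from the next line, down to 27.7 ± 6.70 CPM in 1064, and the lines below 1181-Ctrl overlapped their neighbours. Pde4b and Pde4d were also highest in the 1181 lines, at 15.5 and 28.7 CPM in 1181-Ctrl, with overlapping ranges from line to line.

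**Figure D1:**
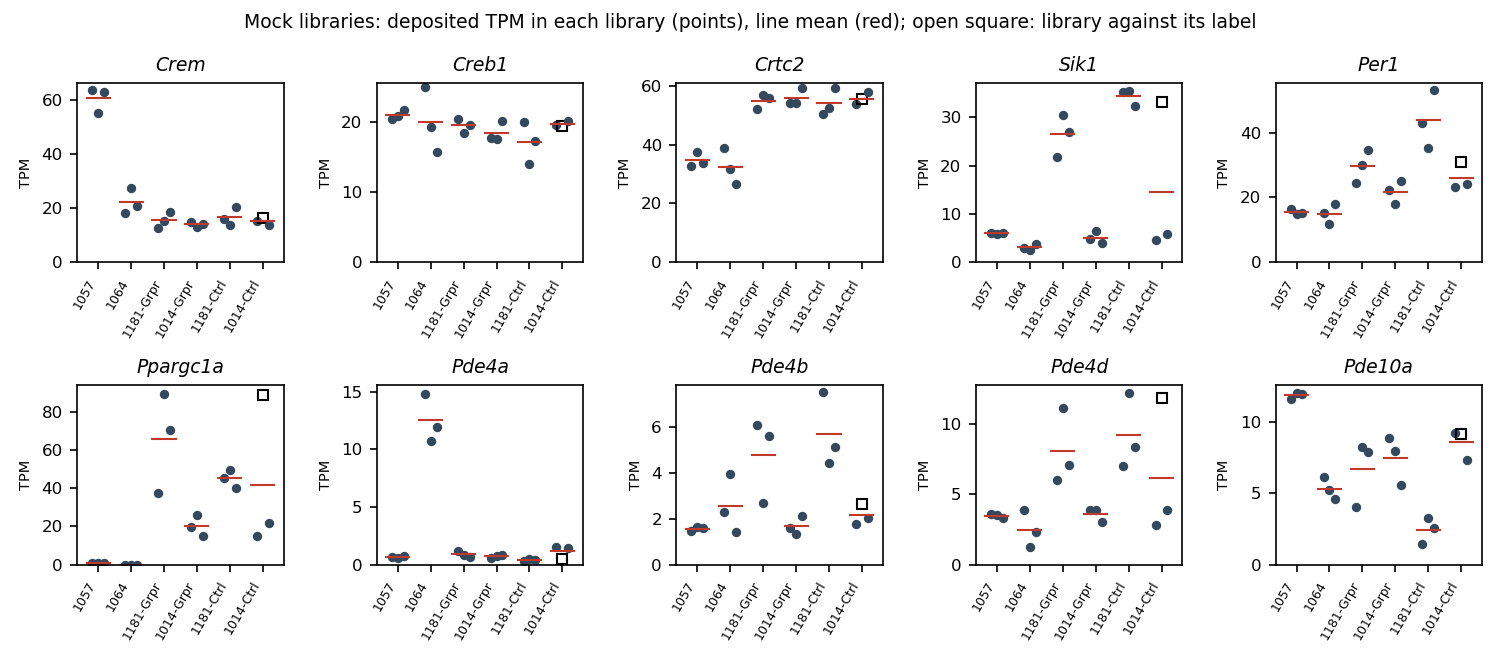
Level of each of the 10 genes in the 18 mock libraries, as deposited TPM on a linear axis from 0, with the 6 lines along the horizontal axis, 1 point per library, a red line at each line mean and an open square for the library that went against its label. Crem stood highest in 1057 (mean 60.7 TPM), Pde4a was high in 1064 (mean 12.5 TPM) and low in the other 5 lines, and Ppargc1a lay at 0 in the 3 mock libraries of 1064.

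With GRP, the most members passed the test in 1057, where 8 of the 10 did, 7 upwards and Creb1 downwards. The strongest rises were in Sik1, Crem and Per1, and all 4 phosphodiesterases rose with them. A gene passed when its adjusted p was under 0.05 in the quasi-likelihood test of edgeR, with Benjamini-Hochberg correction across all genes tested in the line, and all adjusted p-values below come from this test unless another is named. In 1057 52.6% of 14195 genes passed, so the share of members that passed is to be read against a broad response. The number of calls in a line also depends on how close its replicates lay. In counts simulated with the spread of each line, this test recovered 87% of 2-fold changes in 1057, 77% in 1014-Grpr and 39% in 1064. The simulation changed 100 genes at each fold and drew each library on its own, without deviations shared by replicate number. Its recovery is therefore not the power of the test in the real data, where far more genes passed in 1057. With an absolute log2 fold change above 1 as a further condition, 4 members remained (Sik1, Crem, Per1 and Pde4a) against 6.46% of all genes. The median log2 fold change was 0.74 over the members and -0.01 over all genes tested.

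Among the CREB-family genes, Crem stood at 114, 96.5 and 109 CPM in the mock libraries of 1057 (replicates 1, 2 and 3, scaled within the line) and at 327, 344 and 340 CPM with GRP. Every GRP library lay above every mock library, and the log2 fold change was 1.66 ± 0.05 (SE, adjusted p = 3.65e-15). Per length, Crem went from 60.7 ± 4.71 TPM to 183 ± 3.07 TPM (SD, n = 3). Creb1 itself, the founding member of the family, fell slightly, from 85.1, 84.7 and 88.0 CPM to 73.5, 70.1 and 76.7 CPM (log2 -0.23 ± 0.05, adjusted p = 0.000582). Its ranges did not overlap. The coactivator Crtc2 was measured at 40.6, 45.3 and 40.6 CPM without and 44.2, 43.5 and 41.4 CPM with GRP, a log2 difference of 0.03 ± 0.05 (adjusted p = 0.639).

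Sik1, the kinase that opposes CRTC, showed the largest change of the group in 1057. It was at 8.36, 7.83 and 7.96 CPM in mock and at 40.2, 45.2 and 41.0 CPM with GRP, with a wide gap between the groups and a log2 fold change of 2.39 ± 0.06 (adjusted p = 9.22e-16). Per1 rose from 27.9, 24.6 and 25.2 CPM to 64.4, 61.0 and 59.95 CPM, again with no overlap (log2 1.25 ± 0.05, adjusted p = 2.17e-13). Ppargc1a, although also known as a CREB target, was at 1.26, 1.55 and 1.6 CPM in mock and 1.22, 1.58 and 1.87 CPM with GRP, so the groups overlapped (log2 0.09 ± 0.18, adjusted p = 0.711).

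The phosphodiesterases, which break cAMP down, rose less than Sik1 and Crem. Pde4a went from 1.45, 1.25 and 1.6 CPM to 2.95, 2.82 and 3.21 CPM (log2 1.06 ± 0.14, adjusted p = 3.01e-06). Pde4d went from 13.1, 12.5 and 11.6 CPM to 22.2, 23.5 and 22.7 CPM (log2 0.88 ± 0.05, adjusted p = 1.35e-10). Both had separate groups. Pde4b rose by log2 0.61 ± 0.08 (adjusted p = 4.57e-06), from 4.75, 5.13 and 4.90 CPM to 8.03, 7.19 and 7.38 CPM. Pde10a, the member outside the type 4 family, rose least, by log2 0.21 ± 0.03 (adjusted p = 4.98e-05), from a narrow 44.2 to 44.9 CPM to 50.5 to 52.2 CPM. All 8 calls held when the libraries of any 1 replicate number were left out.

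**Figure D2:**
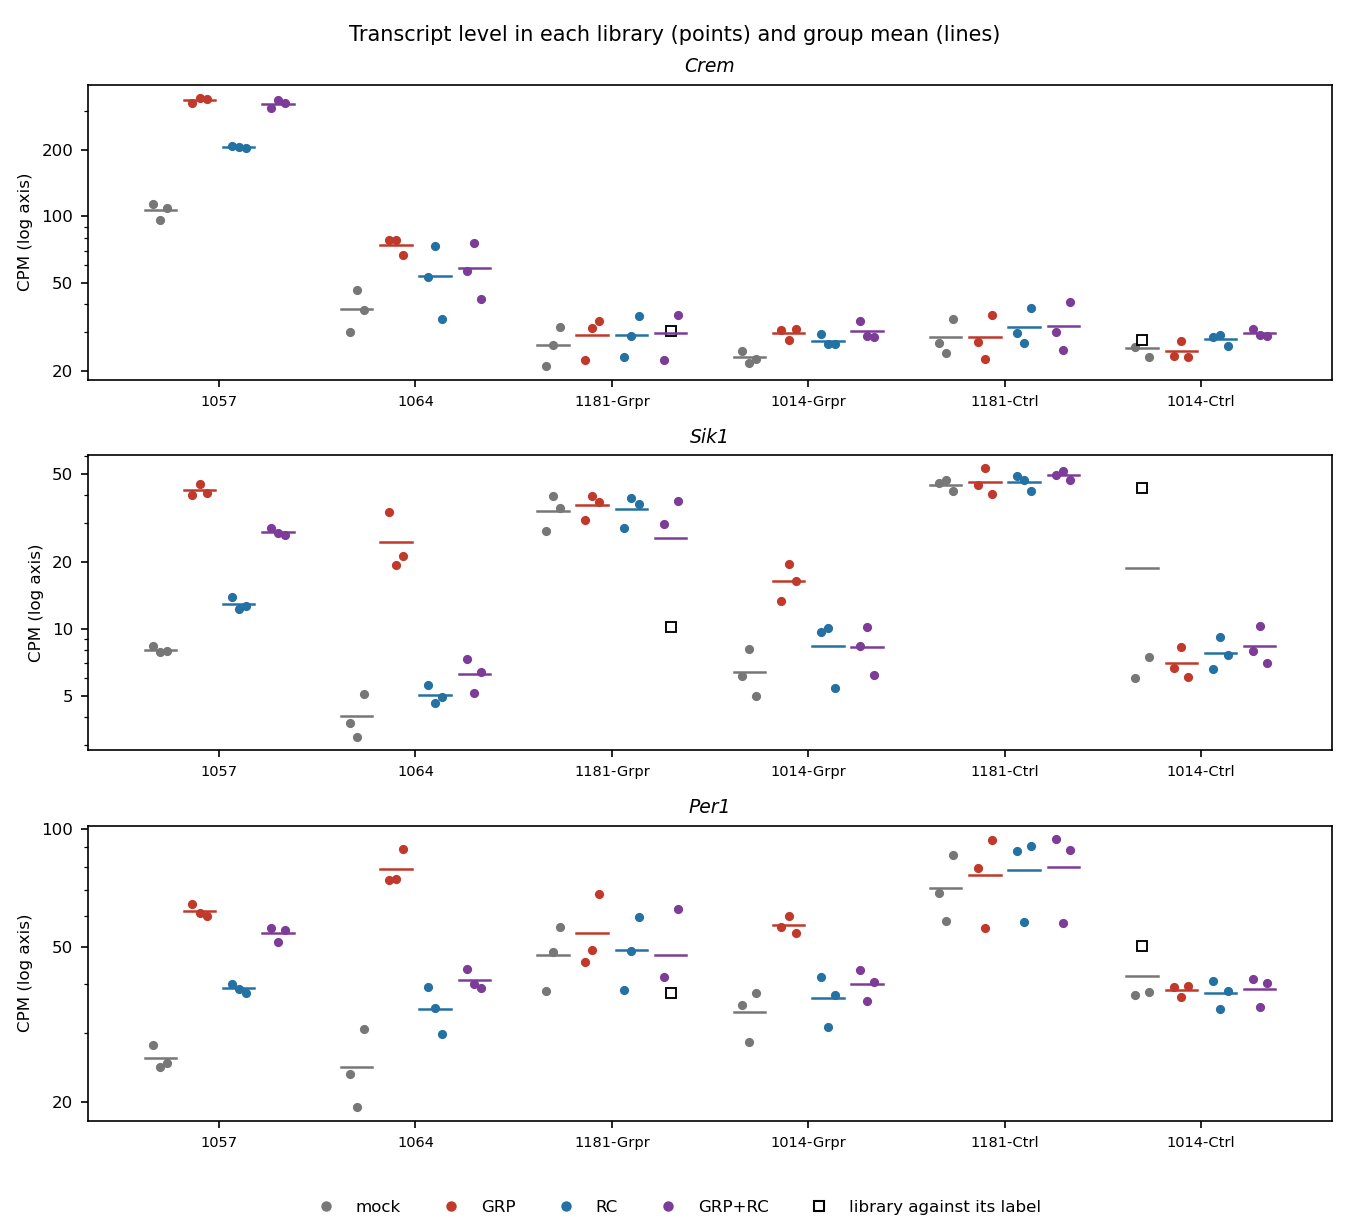
CPM of Crem, Sik1 and Per1 on a log axis in each library of the 6 lines, coloured by treatment, with a line at each group mean and open squares for the libraries that went against their labels. In 1057 the GRP libraries of Sik1 lay at 40.2 to 45.2 CPM above mock libraries at 7.83 to 8.36 CPM, while the mock and GRP libraries of 1181-Grpr overlapped for all 3 genes.

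In 1064, the other line with native Grpr, Sik1 and Per1 rose. Of 9 members tested, 2 passed, against 6.38% of 13794 genes, and both also passed with an absolute log2 fold change above 1, against 2.32%. The median log2 fold change was 0.32 over the members and -0.03 over all genes. Sik1 was at 3.77, 3.25 and 5.10 CPM in mock and at 33.7, 19.3 and 21.2 CPM with GRP, with no overlap and a log2 fold change of 2.61 ± 0.26 (adjusted p = 0.00221). Per1 was at 23.5, 19.3 and 30.7 CPM in mock and at 74.2, 74.7 and 89.0 CPM with GRP, also without overlap (log2 1.69 ± 0.17, adjusted p = 0.00221). Both calls depended on which replicate number was left out: without replicate 1 the adjusted p was 0.121 for either gene and without replicate 2 it was 0.165, whereas without replicate 3 it was 0.0161 for Sik1 and 0.00723 for Per1. These fits did not use the replicate number as a block, although same-numbered libraries deviated together in this line.

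Crem in 1064 was at 29.9, 46.7 and 37.5 CPM in mock and at 78.4, 78.3 and 66.8 CPM with GRP. The groups did not overlap, but the log2 difference of 0.97 ± 0.28 missed the threshold (adjusted p = 0.0704). In 1064 libraries with the same replicate number deviated together, and with the replicate number as a block 43.5% of genes passed and 6 members passed, all upwards. These were Sik1 (log2 2.57), Per1 (1.69), Crem (0.98, adjusted p = 0.00104), Pde4d (0.60, adjusted p = 0.00153), Pde4a (0.31, adjusted p = 0.00616) and Pde10a (0.23, adjusted p = 0.045). Pde4d shows what the block takes up. Its mock libraries held 12.9, 4.25 and 8.47 CPM and its GRP libraries 19.1, 8.26 and 10.9 CPM, so the groups overlapped while each GRP library exceeded the mock library of its own number. Pde4b, at 6.73, 12 and 4.55 CPM in mock and 7.89, 5.87 and 3.28 CPM with GRP, moved in no common direction.

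In 1014-Grpr, where the receptor was introduced, 4 of 10 members rose with GRP: Sik1, Pde4b, Per1 and Crem. Of all genes tested in that line, 29% of 13730 passed, and 4.01% passed with an absolute log2 fold change above 1, as Sik1 alone did among the members. The median log2 fold change was 0.25 over the members and -0.02 over all genes. Sik1 went from 6.12, 8.13 and 4.97 CPM to 13.4, 19.6 and 16.5 CPM (log2 1.36 ± 0.26, adjusted p = 0.00195). Per1 went from 35.3, 28.5 and 38.1 CPM to 56.1, 59.8 and 54.1 CPM (log2 0.74 ± 0.12, adjusted p = 0.000762). For both genes all GRP libraries were above all mock libraries, and the calls held whichever replicate number was left out.

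Pde4b in 1014-Grpr rose from 4.77, 4.0 and 6.0 CPM to 9.71, 7.97 and 9.81 CPM (log2 0.91 ± 0.21, adjusted p = 0.00683), again without overlap. Crem rose by log2 0.37 ± 0.09 (adjusted p = 0.00708), from 24.7, 21.7 and 22.6 CPM to 30.7, 27.5 and 30.9 CPM. The groups were separate, with means of 23.0 and 29.7 CPM beside 107 and 337 CPM in 1057. Without replicate 1 the adjusted p of Pde4b was 0.126, and without replicate 3 that of Crem was 0.0812. With the replicate number as a block, 53.6% of genes and 7 members passed. The block added Pde4a (log2 0.71, adjusted p = 0.00469) and Crtc2 (log2 0.10, adjusted p = 0.0418) upwards and Ppargc1a downwards. Ppargc1a was at 36.6, 48 and 26.9 CPM in mock and at 26.2, 31.6 and 19.97 CPM with GRP, lower within each replicate number though the groups overlapped (log2 -0.51, adjusted p = 1.68e-06 with the block).

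None of the 10 members passed in 1181-Grpr, the second line with an introduced receptor. There edgeR called 0% of 14506 genes, 0 members had an unadjusted p under 0.05, and DESeq2 also called 0 members. The fit of this line also holds the GRP+RC library that went against its label, which widens the spread. On leaving out any 1 replicate number, including replicate 2 with that library, 0 members passed. Sik1 was at 27.6, 39.6 and 35.2 CPM in mock and at 30.8, 39.9 and 37.4 CPM with GRP, and the groups overlapped (log2 0.08 ± 0.36, adjusted p = 1.0). Crem was at 20.9, 26.2 and 31.5 CPM in mock and at 22.3, 31.1 and 33.5 CPM with GRP (log2 0.15 ± 0.23). Each GRP library of Crem was above the mock library of its own number by a small step, and with the block the log2 difference was 0.14 ± 0.06 (adjusted p = 1.0). Per1 was at 38.5, 48.5 and 56.0 CPM in mock and 45.6, 49.1 and 68.1 CPM with GRP (log2 0.19 ± 0.24). The errors in this line were several times those in 1057, so a change of the size seen for Crem in 1014-Grpr was not detectable here without the block. Grpr itself was lower here than in any other receptor line, at 12.4 to 123 TPM in the libraries that fitted the label, and its part in the result was not tested.

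**Figure D3:**
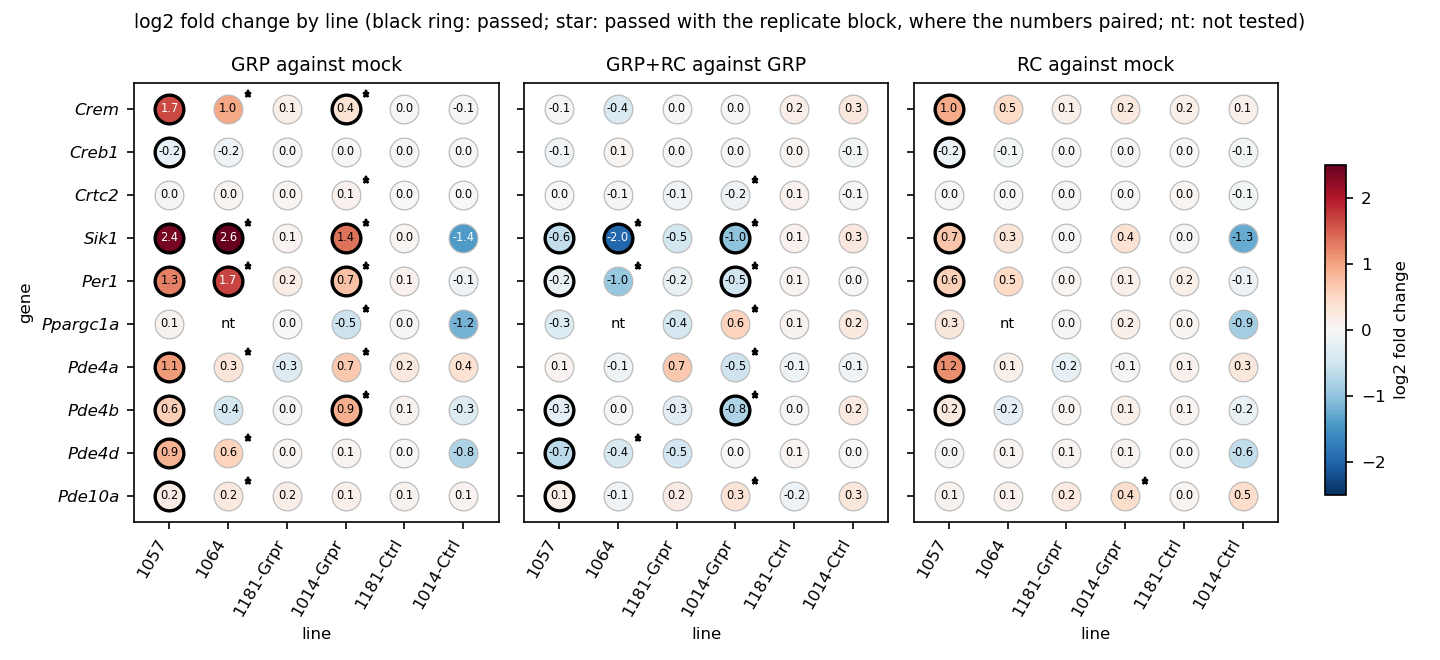
Log2 fold change of each member (vertical axis) in the 6 lines (horizontal axis) for GRP against mock, GRP+RC against GRP and RC against mock, with the value printed in each circle, red for higher and blue for lower, a black ring where it passed and a star where it passed with the replicate block. In the panel for GRP against mock, Sik1 was at 2.39 in 1057, 2.61 in 1064 and 1.36 in 1014-Grpr, and no circle of 1181-Grpr or of either Ctrl line has a ring.

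In the GRPR-negative lines no member passed with GRP. In 1181-Ctrl edgeR called 0% of 14188 genes, 0 members had an unadjusted p under 0.05, and DESeq2 called 0 members. Crem was at 26.8, 24.1 and 34.5 CPM in mock and 27, 22.7 and 35.8 CPM with GRP, and Sik1 was at 45.4, 46.7 and 41.7 CPM in mock and 44.4, 52.9 and 40.4 CPM with GRP. Both overlapped. In 1014-Ctrl edgeR called 0% of 13755 genes and DESeq2 called 0 members, while 2 members had an unadjusted p under 0.05 in edgeR, Sik1 and Ppargc1a. Both rested on the library that went against its label. Sik1 was at 5.99, 43.0 and 7.47 CPM in mock and at 6.66, 8.28 and 6.08 CPM with GRP, so that its log2 difference was -1.42 with that library and 0.05 without it. Ppargc1a was at 27.9, 168 and 40.7 CPM in mock, and its log2 difference was -1.18 with the library and 0.02 without it.

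The effect of GRP was then compared directly between the Grpr and Ctrl versions of the same line. In 1014, the responses of Sik1, Per1, Pde4b and Crem were larger with the receptor, 4 of 10 members against 13.6% of 14204 genes. The difference of the log2 fold changes (1014-Grpr minus 1014-Ctrl) was 2.77 ± 0.69 for Sik1 (adjusted p = 0.0108), 0.85 ± 0.18 for Per1 (adjusted p = 0.00297), 1.24 ± 0.31 for Pde4b (adjusted p = 0.00972) and 0.41 ± 0.13 for Crem (adjusted p = 0.038). Without both libraries that went against their labels, the difference for Sik1 was 1.31 (adjusted p = 0.0148), less than in the full fit by over the limit of 1.5 times. It was then 0.72 for Per1 (adjusted p = 0.00364), 1.07 for Pde4b (adjusted p = 0.0156) and 0.36 for Crem, which no longer passed (adjusted p = 0.0576). The difference for Per1 passed on leaving out any 1 replicate number. Crem lost its call in each such fit (adjusted p 0.0697 to 0.208), and Sik1 and Pde4b lost theirs without replicate 1 (0.0649 and 0.13) or replicate 3 (0.083 and 0.0523). In 1181, edgeR called 0% of 15041 genes for the same difference, with 0 members at an unadjusted p under 0.05 and 0 by DESeq2. The difference there was 0.03 ± 0.40 for Sik1, 0.07 ± 0.36 for Per1 and 0.13 ± 0.35 for Crem.

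Averaged with equal weight over the 4 lines with Grpr, GRP raised Sik1 by log2 1.6 ± 0.14 (adjusted p = 6.4e-11), Per1 by 0.97 ± 0.09 (adjusted p = 9.6e-11), Crem by 0.78 ± 0.10 (adjusted p = 2.32e-07) and Pde4a by 0.43 ± 0.12 (adjusted p = 0.00399). These were 4 of 9 members tested, against 28.5% of 16299 genes. The SE and adjusted p of these means rest on the spread of libraries within lines and not on the spread between lines. Sik1 with GRP ranged from 1.06 times its mock mean in 1181-Grpr to 6.12 times in 1064. Pde4a lost its call without replicate 1 or replicate 2 (adjusted p = 0.0525 in either). With the replicate block 45.1% of genes and 8 members passed, with Pde4b (0.30), Pde4d (0.39) and Pde10a (0.18) added upwards and Creb1 (-0.09) downwards. Over the 2 Ctrl lines edgeR called 0% of 15004 genes. Sik1 had an unadjusted p of 0.046 there (log2 -0.68 ± 0.32, and 0.05 without the library that went against its label), and DESeq2 called 0 members.

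RC alone went with changes in the members in 1057 as well. Crem, Sik1, Per1, Pde4a and Pde4b were higher than in mock and Creb1 was lower, 6 of 10 members against 24.3% of genes. These comparisons share the mock libraries with those above, so the values are given side by side. Replicates lay closest in 1057. The chi-square per degree of freedom between 2 replicates of a group was at most 9.85 there and at least 11.6 in every other line. The p-values in 1057 thus rest on a small spread, and whether that spread is technical was not tested. Crem reached 209, 207 and 204 CPM with RC, above every mock library and below every GRP library (log2 0.95 ± 0.05 against mock, adjusted p = 1.64e-10). Sik1 reached 13.9, 12.3 and 12.7 CPM (log2 0.69, adjusted p = 1.07e-06) and Per1 40.1, 39.0 and 38.1 CPM (log2 0.59, adjusted p = 1.11e-07), both between mock and GRP. Pde4a was at 2.82, 3.45 and 3.34 CPM with RC, overlapping the GRP libraries (log2 1.16 against mock, adjusted p = 5.47e-06). Pde4d did not follow, at 11.9, 12.1 and 12.1 CPM (log2 -0.05 ± 0.06, adjusted p = 0.61). The weaker calls, Pde4b (log2 0.24, adjusted p = 0.0488) and Creb1 (log2 -0.17, adjusted p = 0.0165), did not hold on leaving out replicates: Pde4b lost its call in each such fit (0.104 to 0.283), and Creb1 without replicate 2 (0.0591) or 3 (0.0699).

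In the other lines RC alone changed no member in edgeR. In 1064 it called 0% of all genes, with 1 member, Per1, at an unadjusted p under 0.05 (39.4, 34.7 and 29.9 CPM with RC, log2 0.50 ± 0.16, adjusted p = 1.0), and DESeq2 called 0 members. In 1014-Grpr edgeR again called 0% of genes and DESeq2 0 members, with Crem at an unadjusted p of 0.014. Crem was at 29.3, 26.6 and 26.3 CPM with RC, above the mock range of 21.7 to 24.7 CPM. With the replicate block 0.0364% of genes passed in that line, among them Pde10a (log2 0.44, adjusted p = 0.0327), which was at 31.7, 28.2 and 19.1 CPM in mock and at 45.8, 40.3 and 22.2 CPM with RC. The values of Pde10a in the receptor-free 1014-Ctrl were similar, at 33.3, 33.2 and 25.8 CPM in mock and 44.5, 52.3 and 30.1 CPM with RC. The RC mean was 1.38 times the mock mean there and 1.37 times in 1014-Grpr, and in both lines each RC library exceeded the mock library of its own number. In 1181-Grpr, 1181-Ctrl and 1014-Ctrl the share of genes passed and the number of members passed were 0 in edgeR and 0 in DESeq2, with 0 members at an unadjusted p under 0.05. In 1014-Ctrl, leaving out the library that went against its label together with the block gave 0.216% of genes and 2 members, Pde10a (log2 0.39, adjusted p = 0.0171) and Ppargc1a (log2 0.28, adjusted p = 0.0279), although over all libraries the numbers did not pair RC with mock in that line.

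Adding RC to GRP separated the members of 1057 into those that came down from their GRP level and those that stayed. Sik1, Per1, Pde4b and Pde4d fell, Pde10a rose, and Crem and Pde4a missed the threshold, so that 5 of 10 members passed against 24.7% of genes. The same GRP libraries enter this contrast and the one with mock. Sik1 was at 28.6, 27.1 and 26.6 CPM with GRP+RC, below every GRP library and above every mock library (log2 -0.62 against GRP, adjusted p = 1.03e-07). Pde4d returned to 14.7, 14.0 and 14.0 CPM (log2 -0.68 ± 0.05, adjusted p = 3.05e-08), near its mock range of 11.6 to 13.1 CPM. Per1 fell to 55.8, 51.5 and 55.2 CPM (log2 -0.19, adjusted p = 0.0048). Crem, in contrast, was at 308, 337 and 326 CPM, which overlapped the GRP libraries (log2 -0.06 ± 0.05, adjusted p = 0.409). Pde4a was at 3.35, 3.0 and 3.02 CPM, also overlapping them (log2 0.07 ± 0.12, adjusted p = 0.746).

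Pde10a rose above its GRP level, from 51.2, 52.2 and 50.5 CPM to 56.1, 55.8 and 58.1 CPM (log2 0.14 ± 0.03, adjusted p = 0.004). Pde4b, at 6.32, 5.83 and 6.66 CPM (log2 -0.26, adjusted p = 0.02), lost its call in each fit without 1 replicate number (0.0674 to 0.165) and had an adjusted p of 0.0793 in DESeq2. Per1 lost its call without replicate 2 (0.0702) and Pde10a without replicate 3 (0.0826). Against mock, 8 members still passed under GRP+RC, 7 upwards and Creb1 downwards, with 44.3% of genes. Crem (log2 1.6), Sik1 (1.77), Per1 (1.06) and Pde4a (1.13) stayed above 1, Pde10a was at 0.35, and Pde4d was at 0.20 (adjusted p = 0.00867, and 0.0828 without replicate 3).

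**Figure D4:**
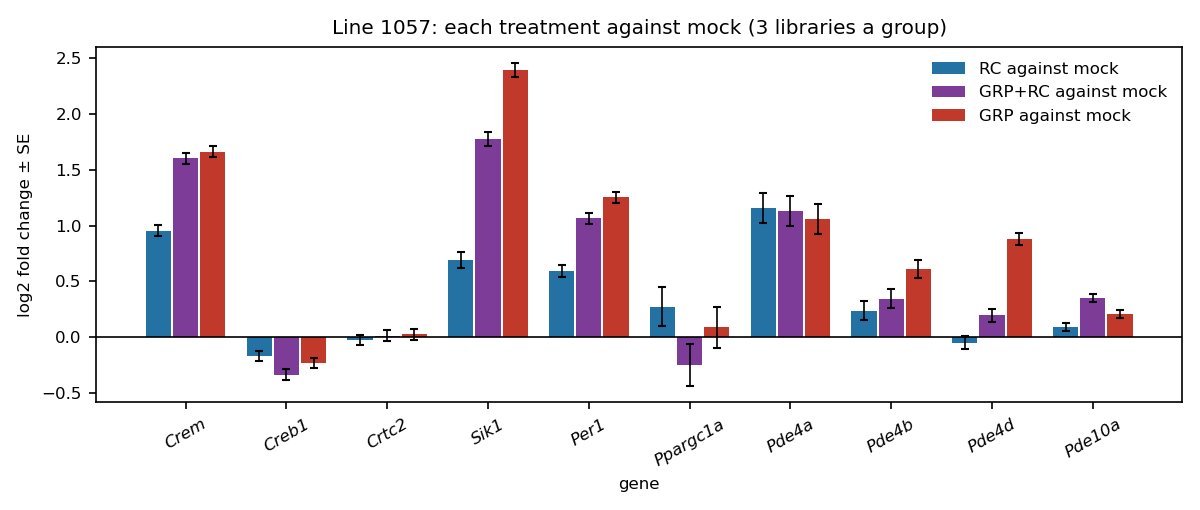
Log2 fold change of the 10 members in 1057 for RC, GRP+RC and GRP, each against the same 3 mock libraries, with bars from 0 and whiskers of 1 SE. The bars of GRP+RC lay near those of GRP for Crem (1.6 and 1.66) and Pde4a (1.13 and 1.06), and below them for Sik1 (1.77 and 2.39) and Pde4d (0.20 and 0.88).

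In 1064, RC brought GRP-treated cells down for Sik1, the single member among the 0.029% of genes that passed. Sik1 was at 7.31, 5.15 and 6.39 CPM with GRP+RC against 33.7, 19.3 and 21.2 CPM with GRP (log2 -1.98 ± 0.25, adjusted p = 0.042). The groups lay far apart, but the call was lost whichever replicate number was left out (0.159 to 0.747), in fits without the block. With the block 21.2% of genes passed, and Per1 (log2 -0.95, adjusted p = 0.00255) and Pde4d (log2 -0.45, adjusted p = 0.0158) fell with Sik1. Per1 was at 43.8, 40.1 and 39.2 CPM with GRP+RC, below every GRP library and above every mock library. Crem, at 56.8, 76.2 and 42.1 CPM, overlapped both groups. For GRP+RC against mock in 1064, edgeR called 0% of genes and DESeq2 0 members, and Sik1 and Per1 were the 2 members at an unadjusted p under 0.05 (log2 0.63 ± 0.25 and 0.74 ± 0.16).

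In 1014-Grpr the members that had risen came down with RC, with Crem as the exception. Of 10 members 3 fell, against 11.8% of genes passing. Sik1 was at 8.39, 10.2 and 6.19 CPM with GRP+RC (log2 -1.0 ± 0.25 against GRP, adjusted p = 0.0244), Per1 at 43.6, 36.2 and 40.7 CPM (log2 -0.50, adjusted p = 0.0195) and Pde4b at 5.75, 3.72 and 6.65 CPM (log2 -0.77, adjusted p = 0.0341). All were below every GRP library and overlapped the mock libraries. None of the 3 calls held, whichever replicate number was left out (adjusted p 0.0588 to 0.151 for Sik1, 0.0531 to 0.11 for Per1 and 0.057 to 0.254 for Pde4b). Those fits were without the block, although the numbers paired the libraries in this line. Crem stayed at 33.5, 28.8 and 28.6 CPM, overlapping GRP at 30.7, 27.5 and 30.9 CPM (log2 0.03 ± 0.09, adjusted p = 0.877). Its mean with GRP+RC was 1.32 times mock here, 1.16 times in 1014-Ctrl and 1.12 times in 1181-Ctrl. With RC alone the ratios were 1.19, 1.09 and 1.11. In all of these, each library exceeded the mock library of its own number. With all libraries kept, none of these changes in the Ctrl lines passed.

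With the block, 38.7% of genes and 7 members passed for GRP+RC against GRP in 1014-Grpr. Pde4a (log2 -0.54, adjusted p = 0.0358) and Crtc2 (-0.15, adjusted p = 0.0054) fell as well, while Pde10a (0.29, adjusted p = 0.00352) and Ppargc1a (0.55, adjusted p = 1.83e-06) rose. Ppargc1a was at 42.2, 48.4 and 24.8 CPM with GRP+RC, next to its mock libraries at 36.6, 48 and 26.9 CPM. Against mock, no member passed under GRP+RC in edgeR, where 0.947% of genes did, with Crem at an unadjusted p of 0.000652 (log2 0.40, adjusted p = 0.057), and DESeq2 called 1 member, Crem. With the block 17.3% of genes passed, and Crem (log2 0.39, adjusted p = 0.000103), Pde10a (0.45, adjusted p = 0.000392) and Per1 (0.25, adjusted p = 0.0439) were higher than in mock.

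No member passed in either contrast with GRP+RC in 1181-Grpr, 1181-Ctrl or 1014-Ctrl, where edgeR called 0% of genes and DESeq2 0 members. In 1181-Grpr and 1181-Ctrl 0 members had an unadjusted p under 0.05, and in 1014-Ctrl Crem was the 1 such member in each contrast (log2 0.27 against GRP and 0.22 against mock). Its GRP+RC libraries in 1014-Ctrl were at 30.9, 29.1 and 28.6 CPM, above all of its mock libraries at 23.0 to 27.6 CPM. The replicate numbers paired these GRP and GRP+RC libraries. The block alone called 0 members, but with the library that went against its label also left out 0.604% of genes and 3 members rose against GRP, Crem (log2 0.27, adjusted p = 0.0184), Pde10a (0.29, adjusted p = 0.0139) and Ppargc1a (0.26, adjusted p = 0.00783). In 1181-Grpr, the library labelled GRP+RC replicate 2 held Sik1 at 10.2 CPM, whereas replicates 1 and 3 held 29.6 and 37.5 CPM. The log2 difference of Sik1 between GRP+RC and GRP was -0.48 with that library and -0.10 without it.

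**Figure D5:**
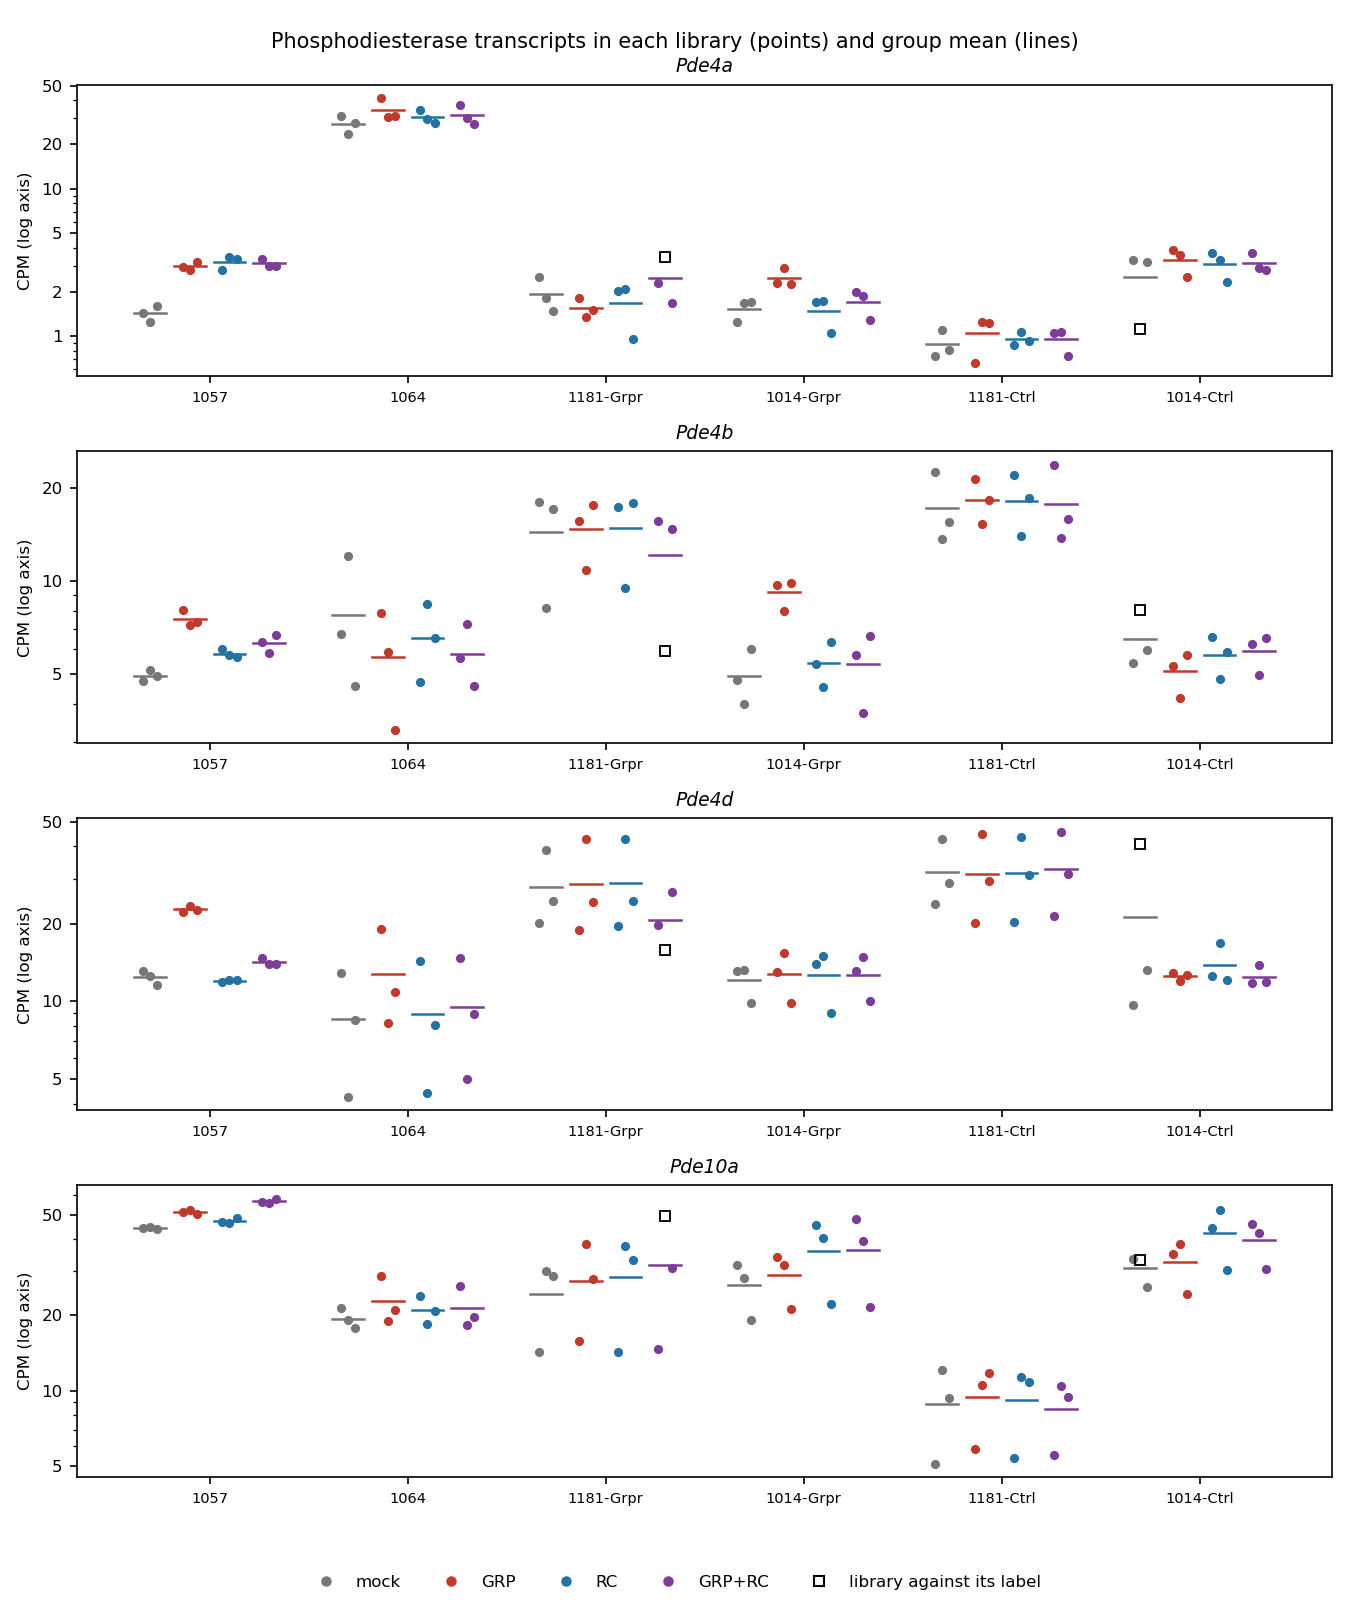
CPM of Pde4a, Pde4b, Pde4d and Pde10a on a log axis in each library of the 6 lines, coloured by treatment, with a line at each group mean and open squares for the libraries that went against their labels. Pde4d in 1057 rose from 11.6 to 13.1 CPM in mock to 22.2 to 23.5 CPM with GRP and lay at 14.0 to 14.7 CPM with GRP+RC, and Pde4a was highest in 1064.

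The introduced receptor without added ligand went with few differences in the members. In 1181, Pde4a was higher in the Grpr version (2.51, 1.82 and 1.49 CPM against 0.743, 1.11 and 0.808 CPM in 1181-Ctrl, with no overlap), by log2 1.17 ± 0.34 (adjusted p = 0.0311). It was the 1 member among 12.1% of 15041 genes, and the call was lost whichever replicate number was left out (0.0748 to 0.258). Pde10a, at 14.3, 29.9 and 28.6 CPM against 5.11, 12.1 and 9.39 CPM, had a larger log2 difference of 1.5 ± 0.50 that missed the threshold (adjusted p = 0.0568). Its adjusted p was 0.0311 without both libraries that went against their labels and 0.018 in DESeq2. With the replicate block 25% of genes passed, with Pde10a (log2 1.52, adjusted p = 6.7e-07), Pde4a (1.19, adjusted p = 0.00962) and Creb1 (0.24, adjusted p = 0.0165) higher and Per1 lower (-0.50, adjusted p = 0.0329) in the Grpr version.

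In 1014, no member passed at rest, where 3.23% of 14204 genes did, 5 members had an unadjusted p under 0.05, and DESeq2 called Sik1 (adjusted p = 0.0274). The library that went against its label carried most of this. Without it, the log2 difference (1014-Grpr minus 1014-Ctrl) went from -1.51 to -0.03 for Sik1, from -1.05 to 0.16 for Ppargc1a and from -0.77 to 0.11 for Pde4d. For Pde4a the log2 difference went from -0.69 to -1.04 (adjusted p = 0.0349), and it was lower in 1014-Grpr (1.24, 1.69 and 1.70 CPM) than in replicates 1 and 3 of 1014-Ctrl (3.31 and 3.17 CPM).

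Genes around the members in the same pathway were read from lists taken from general knowledge of cAMP signalling. Like the members, these lists were chosen with earlier results of these data known. Their counts describe the listed genes and are no test of the pathway. The list closest to the members, 21 other genes known as CREB targets, moved in 1 direction with GRP. The share of all genes that passed with GRP was 52.6% in 1057, 6.38% in 1064 and 29% in 1014-Grpr. In 1057, 16 of 18 tested rose and 0 fell (median log2 2.62 against -0.01 over all genes). In 1064, 8 of 15 rose and 0 fell (median 1.88 against -0.03), and in 1014-Grpr 15 of 17 rose and 0 fell (median 2.04 against -0.02). In 1181-Grpr 0 of 15 passed. Many of these, such as Fos, Egr1 and the Nr4a receptors, are immediate-early genes that other pathways switch on as well. Nr4a3, an orphan nuclear receptor, rose from 3.17, 3.14 and 2.23 CPM to 203, 233 and 207 CPM in 1057 (log2 6.23) and by log2 4.55 in 1014-Grpr, and in 1064 it differed by log2 3.18 (adjusted p = 0.0679). Rgs2, which limits G-protein signalling, rose in the 3 lines by log2 4.28, 3.25 and 2.88 (1057, 1064 and 1014-Grpr). Ptgs2 (cyclooxygenase-2) also passed in 1057 and 1014-Grpr, but its mock libraries held at most 0.11 and 0.09 CPM. With GRP+RC against GRP, 12 of the 18 fell and 2 rose in 1057, where 24.7% of all genes passed, 0 of 15 passed in 1064 (0.029%), and 14 of 17 fell in 1014-Grpr (11.8%). RC alone against mock went with rises too: in 1057, 14 of the 18 rose and 0 fell, where 24.3% of all genes passed.

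The clock genes, to which Per1 belongs, split between directions. Of 15, 6 rose and 7 fell in 1057, 1 rose and 3 fell in 1064, and 4 rose and 6 fell in 1014-Grpr, where 52.6%, 6.38% and 29% of all genes passed. Nfil3, a repressor of D-box promoters that is also in the list of CREB targets, rose by log2 2.36, 2.31 and 2.04 in 1057, 1064 and 1014-Grpr. Arntl, which encodes the activator BMAL1, rose by 1.31 in 1057 and 1.46 in 1014-Grpr. Nr1d1, a repressor of Arntl, fell by 0.90, 1.66 and 0.68 on the log2 scale in those 3 lines.

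Upstream of the members, 4 of 7 adenylyl cyclase and Gs genes tested rose and 2 fell in 1057, 2 of 6 rose in 1064, and 1 of 6 rose and 1 fell in 1014-Grpr. The shares of all genes were again 52.6%, 6.38% and 29% in these lines, and those of the upstream lists were not far from them in 1014-Grpr. Adcy7, a cyclase, rose in all 3 lines, by log2 1.54, 0.69 and 1.48. Among protein kinase A and EPAC genes, 3 of 10 rose and 5 fell in 1057, 0 of 11 passed in 1064, and 2 of 11 rose and 1 fell in 1014-Grpr. Prkar1a, a regulatory subunit that holds the kinase inactive, rose by log2 1.15 in 1057 (702, 650 and 650 CPM to 1476, 1494 and 1467 CPM) and by 0.28 in 1014-Grpr. Of 7 CREB partners and kinases, Sik3, a relative of Sik1, rose by log2 0.63, 0.82 and 0.23 in 1057, 1064 and 1014-Grpr. In that list 2 rose and 3 fell in 1057, 1 rose in 1064, and 2 rose in 1014-Grpr.

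Among the other phosphodiesterases 3 rose and 2 fell of 7 tested in 1057, 1 rose and 1 fell of 8 in 1064, and 3 rose and 2 fell of 8 in 1014-Grpr. The high-affinity cAMP enzyme Pde8a rose by log2 0.99 in 1057 and 0.77 in 1014-Grpr. The pigment genes, 12 in all, showed 3 up and 4 down in 1057, 1 down in 1064 and 1 up in 1014-Grpr. Mc1r, the melanocortin receptor itself, fell by 0.83 on the log2 scale in 1057 and by 1.77 in 1064. Of the relatives and partners of Ppargc1a, 2 of 10 rose and 3 fell in 1057, 0 of 9 passed in 1064 and 2 of 9 rose in 1014-Grpr, with Pprc1, a member of the PGC-1 family, up by log2 0.23 in 1057 and 0.70 in 1014-Grpr. Beside the 52.6% of all genes that passed in 1057, the 7 of 12 pigment genes and 5 of 10 relatives of Ppargc1a were near the background, and 6.38% and 29% of all genes passed in 1064 and 1014-Grpr.

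Across all 72 libraries, with log2 CPM centred on each line, some genes followed a member closely. The values below are descriptive Pearson correlations, and their points share lines, treatments and libraries. Crem and Per1 had r = 0.772, Sik1 and Per1 0.770, Sik1 and Pde4d 0.622 and Crem and Sik1 0.585. Over the 70 libraries left without those that went against their labels, these values were 0.784, 0.804, 0.523 and 0.673. Of 16595 genes, those most like Crem were Ttc7b (r = 0.867), Prkar1a (0.862) and 1700017B05Rik (0.861), which ranked 3, 1 and 4 over the 70 libraries. Those most like Per1 were Sec24b (0.885), Map1b (0.869) and Csrnp1 (0.863), then ranked 1, 6 and 2. The order for Sik1 rested in part on these libraries: Shb (0.888), Mical1 (0.871) and Dot1l (0.862) led over all 72, and ranked 22, 17 and 18 without them (0.851, 0.860 and 0.860). Pde4b was followed less closely, by Nfe2l2 (0.707), Mdm2 (0.686) and Olfm1 (0.678), which ranked 1, 19 and 24 over the 70 libraries.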

How the data were processed

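Gene-level read counts and TPM were deposited by the authors for 72 mRNA libraries (TruSeq Stranded, paired-end, NovaSeq), aligned with STAR to mm10 (GRCm38.p5) with GENCODE release 13 after FastQC 0.11.5. The counts carry no normalization, and TPM is scaled by gene length and depth. The strand setting of counting is not given in the sources used here. Totals of 19512882 to 46862053 counts per library set the precision. Gene symbols matched 99.6% of the identifiers.

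The members and the gene lists were chosen with earlier results of these data known. Counts were tested per line (12 libraries) with edgeR 4.0.16 in R 4.3.3 (filterByExpr, TMM scaling, quasi-likelihood F test, Benjamini-Hochberg over all genes tested, 1 coefficient per treatment). The study's methods used DESeq2 with an absolute log2 fold change above 1, and both were run as alternatives. Grpr and Ctrl versions were compared in 24-library fits and the mean over lines in fits of 48 or 24 libraries. The SE is the log2 fold change over the square root of F. CPM used TMM factors within a line, or over all 72 libraries at rest. The code was tested on simulated counts made from each line, with few genes changed and each library drawn on its own. For GRP against mock, the recovery of 2-fold and 4-fold changes was 87% and 97% for 1057 (14195 genes), 77% and 91% for 1014-Grpr (13730), 57% and 77% for 1181-Grpr (14506), 53% and 84% for 1014-Ctrl (13755), 43% and 82% for 1181-Ctrl (14188) and 39% and 81% for 1064 (13794). For the difference between versions, 2-fold and 4-fold recovery was 31% and 66% in 1181 (15041 genes) and 61% and 73% in 1014 (14204). Versions of the other tools were DESeq2 1.42.0, limma 3.58.1 and Python 3.11.15.

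All 10 members were named. Of each list, up to 5 genes could be named among those passing in at least 2 lines with Grpr. These were the genes with the largest absolute value of the mean signed log2 fold change over the lines with Grpr. For members passing in at least 2 such lines, the 3 most correlated genes were named. Gene positions came from GENCODE release 21 on GRCm38.

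The replicate numbers in the labels are shared between treatments, and nothing in the labels says what a number marks. Same-numbered mock and GRP libraries deviated together (every correlation of deviations from group means over 0.1, the lowest 0.118) in 5 of 6 lines and not in 1057 (lowest 0.008). They also did so for the mock libraries of the Grpr and Ctrl versions (lowest 0.186 in 1181 and 0.111 in 1014). Blocked values are given where this held and a call changed.

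Alternatives were DESeq2, DESeq2 size factors in edgeR, no filter on low counts, the replicate block, leaving out each replicate number, leaving out the 2 libraries that went against their labels, limma on log2(TPM + 0.1), a single fit of all 72 libraries, and the fold threshold. Correlations without those 2 libraries were added after seeing the data. The fits that left out a replicate number held no replicate block, also in lines where the numbers paired the libraries. Promoter sequences came from RefSeq (GRCm38.p6). Crem, Sik1 and Crtc2 were not matched there.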

Additional observations from a re-analysis of the deposited data

Results flagged for a closer look

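The effect of GRP differed between 1014-Grpr and 1014-Ctrl, by the test of the difference itself, for 4 members. The difference of the log2 fold changes was 2.77 for Sik1, 1.24 for Pde4b, 0.85 for Per1 and 0.41 for Crem, all larger with the receptor, in edgeR's quasi-likelihood test. All GRP libraries of these 4 genes in 1014-Grpr were above all mock libraries. The values for Sik1 (1.31), Pde4b (1.07), Per1 (0.72) and Crem (0.36) without the libraries that went against their labels are on the same side of 0, and Crem did not pass there.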

How the results depend on the processing

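Over all alternatives, 2934 log2 fold changes of members stayed on their side of the threshold, 60 newly passed and 106 no longer passed. A further 2 were counted as reversed, and the cause was not tested where no construction shows it. Staying on a side of the threshold does not mean keeping direction. Without the libraries that went against their labels, some values that did not pass changed sign, such as Sik1 with GRP in 1014-Ctrl, given above. Both values counted as reversed were Ppargc1a without the 2 libraries that went against their labels and with the replicate block. They were 0.28 for RC against mock in 1014-Ctrl (-0.86 in the full fit) and -0.45 for the difference of the GRP effect in 1014 (0.65 in the full fit). The number of all genes passed moved between settings as well. The member counts that follow therefore do not by themselves show a change particular to the members. For GRP+RC against GRP in 1064, edgeR called 0 genes upwards and 4 downwards, and DESeq2 63 and 162. Members passed with GRP in 1057 numbered 8 (52.6% of genes), but 4 in the fit of all 72 libraries and 4 with the fold threshold (6.46% of genes). For GRP+RC against GRP in 1057 there were 3 to 4 on leaving out a replicate number, 0 in the 72-library fit and 0 with the fold threshold. RC against mock in 1057 gave 2 and 1 under these settings, and GRP+RC against mock 4 and 4. For GRP in 1064 the replicate block gave 6 and leaving out a replicate number 0 to 2. GRP+RC against GRP in 1064 gave 2 with DESeq2, 3 with the block, 0 to 0 on leaving out a replicate number, 0 with TPM in limma and 2 in the 72-library fit. In 1014-Grpr, GRP against mock gave 7 with the block, 2 in the 72-library fit and 1 with the fold threshold. GRP+RC against GRP gave 7 with the block, 0 to 1 on leaving out a replicate number, 1 with TPM, and 0 in the 72-library fit and with the fold threshold. RC against mock gave 1 with the block, and GRP+RC against mock gave 1 with DESeq2, 1 without the filter and 3 with the block. In 1014-Ctrl the 72-library fit gave 1 member for GRP against mock and 1 for RC against mock, and leaving out the 2 libraries together with the block gave 3 for GRP+RC against GRP and 2 for RC against mock. At rest, 1181 gave 2 with DESeq2, 0 without the filter, 4 with the block, 0 to 1 on leaving out a replicate number, 2 without the 2 libraries and 5 when these were left out with the block, and 1014 gave 1 with DESeq2, 1 without the filter, 1 without the 2 libraries and 1 when these were left out with the block. The difference of the GRP effect in 1014 gave 1 to 3 on leaving out a replicate number and 2 with the fold threshold. The mean over the lines with Grpr gave 8 with the block, 8 without the 2 libraries and with the block, and 1 with the fold threshold. At rest, TPM in place of CPM moved the ratio of the highest to the lowest line from 5.28 to 4.33 for Crem, from 1.58 to 1.23 for Creb1, from 2.30 to 2.92 for Per1 and from 1.45 to 1.73 for Crtc2. Where the replicate numbers paired the libraries, the block changed no other call than those given in the report. In 1057, where they did not, the block left 8 members passed for GRP. Low counts limit Pde4a outside 1064.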
